A study of Mus musculus with 4 samples.

Results

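A set of 29 genes of DNA damage signalling and repair were measured in the injured pancreas of mice with and without Ifrd1, a transcriptional co-regulator. They were chosen by name, as 32 genes of the pathway, with earlier results of these data known. A member was kept where the array annotation gave a row with its symbol alone. That left 29 of 32 members, out of 22180 genes in all. Fanca, Xrcc2 and Ddb2 had no such row and are not analysed here. Each gene was represented by its row with the highest mean, and Atr was the only member with a second row.

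The groups were IFRD1 null mice (n = 2) and wild-type mice (n = 2). All were 8 weeks old and had received cerulein, a cholecystokinin analog that over-stimulates acinar cells and causes pancreatitis, at 100 µg/kg intraperitoneally in 6 injections per day on alternate days. Whole pancreas was taken on day 5, a stage the study chose because the injured tissue proliferates. Total RNA was hybridised to Affymetrix arrays, and values are the authors' deposited levels, read here as log2. How the null allele was made and the strain of the mice are not given in the sources used here, and untreated pancreas is not analysed here. In bulk tissue, fewer cells of a type and less RNA per cell cannot be told apart.

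DNA damage is read by kinases. ATM is activated at double-strand breaks through the MRE11-RAD50-NBS1 complex, and ATR at single-stranded DNA of stalled forks. They phosphorylate checkpoint kinases and chromatin mediators, which hold the cell cycle and steer repair. Breaks are then repaired by end joining, which can run at any stage of the cycle, or by homologous recombination, which copies from the sister chromatid and runs after replication has begun. Many recombination genes are transcribed mostly in cycling cells, under E2F factors, and others, such as Xpc, Rrm2b and Polk, are known targets of p53.

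Some facts of the series touch every value. Ifrd1 itself was at 6.99 and 7.09 in the null arrays, against 9.04 and 9.07 in the wild-type arrays. Xist was high in both null arrays (10.2 and 9.58, against 2.56 and 3.54 in wild type) and the Y-linked Uty was low in them (2.25 and 2.36, against 6.41 and 6.40), so that sex, as read from these genes, and genotype cannot be told apart in these arrays. The 9 measured acinar markers averaged 11.2 and 11.6 in the null arrays and 11.5 and 11.4 in wild type, as the tissue label requires. The arrays also differed in other cells: B and plasma cell markers averaged 6.34 and 4.69 in the null arrays, against 5.29 and 5.13 in wild type, and intestinal markers averaged 4.61 in wild type 1, against 3.55 to 3.65 in the other 3 arrays.

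None of the 29 repair genes passed limma's test over all genes (0 at adjusted p under 0.05, adjusted p from 0.721 to 0.983). Ifrd1 itself did not pass either (log2 difference -2.02, limma adjusted p 0.138), nor did Xist (6.82, limma adjusted p 0.140). Across all genes 1 did, Uty, which is 0.00451% of all genes, and 0 with any array left out. At unadjusted p under 0.05 limma gave 3 members, all lower in the null, Bard1, Polk and Brca2. This was 10.3% of the members, beside 3.63% of all genes lower and 3.27% higher at that level. Each lost that level with some arrays left out. Unadjusted limma p for Bard1 was 0.0857 without Ifrd1 null 1 and 0.0689 without Ifrd1 null 2, and for Polk 0.0937 without wild type 1 and 0.109 without wild type 2. That of Brca2, with an array left out, was under 0.05 only without wild type 2 (0.0372), and was 0.0963 with the replicate number as a block. Polk and Brca2 were 2 of the 21 members above the median level over genes (4.67), where 5.41% of genes were lower at that p.

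The direction of the differences was mostly one way and their size was small. In the null, 24 of 29 members (82.8%) had a lower mean, beside 52.6% of all genes. Their median log2 difference was -0.07, beside -0.01 over all genes, and single members ran from -0.45 to 0.29. The median was -0.17 without Ifrd1 null 1, -0.08 without Ifrd1 null 2, -0.11 without wild type 1 and -0.046 without wild type 2. Of all genes above the median level, 67.3% were lower, and their median was -0.07. Of the 21 members above that level 19 were lower (90.5%), their median being -0.13, and of the 8 members below it 5 were lower, their median being -0.03.

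Set array by array, 12 members had both null arrays below both wild-type arrays, which is 41.4% of the members beside 19.7% of all genes. Another 2, Rad51c and Rrm2b, had both null arrays above, beside 16.1% of all genes. Among genes above the median level 29.1% were lower without overlap and 8.82% higher, and of the 21 members there, 11 were lower and 1 higher. With 1 array left out groups overlap less easily, and 13 members without wild type 2 to 19 without wild type 1 were lower without overlap, beside 31.4% to 38.3% of all genes with an array left out. The count of lower members depended on the wild-type array taken: null 1 was lower than wild type 1 for 16 members and than wild type 2 for 23, and null 2 for 18 and 22. Over all genes these pairs gave 50.6%, 52.7%, 48.2% and 49.8% lower, in the same order. Genes above the median level gave 59.0%, 64.1%, 59.5% and 62.8%, beside 55.2%, 79.3%, 62.1% and 75.9% of the members.

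**Figure D1:**
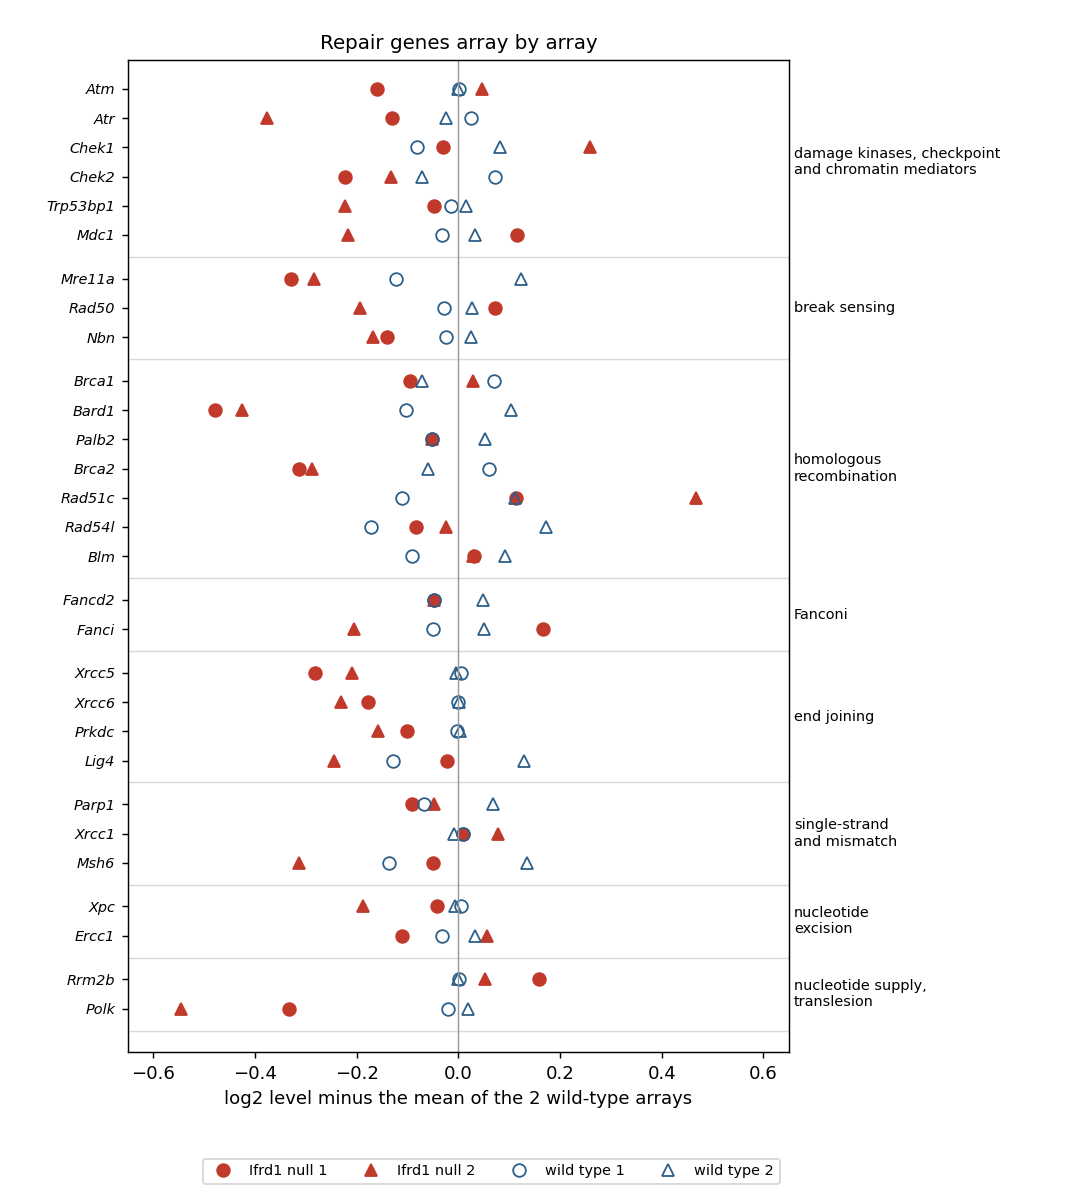
Log2 level of each of the 29 repair genes in each array minus the mean of the 2 wild-type arrays, grouped by role, with filled red symbols for Ifrd1 null and open blue symbols for wild type (circle, replicate 1; triangle, replicate 2). Both red symbols lie left of both blue ones for 12 genes, with the widest clear space in Bard1 and Polk, and symbols lie on top of each other where arrays hold the same value, as in Palb2 and Fancd2.

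Of the sensor kinases ATM and ATR, Atr had the lower level in both null arrays. Atr stood at 5.46 and 5.22 in the null arrays, against 5.62 and 5.57 in wild type, a difference of -0.25 ± 0.13 (log2, limma SE). The groups did not overlap, but the null arrays lay 0.24 apart, about as far as the genotypes. A second, dimmer row annotated to Atr was at 3.46 and 3.75 in the null and 3.41 and 3.66 in wild type, a difference of 0.07 in the other direction, so the rows disagree, and their mean differed by -0.094. Without Ifrd1 null 2 the difference of the brighter row was -0.13. Atm, the kinase of double-strand breaks, was at 6.16 and 6.37 in the null arrays and at 6.32 in both wild-type arrays, which lay between the null values. Its difference was -0.06, with a 95% interval from -0.38 to 0.27, and 0.046 without Ifrd1 null 1.

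The kinases downstream went separate ways. Chek2, the effector of ATM, was at 5.45 and 5.54 in the null arrays, against 5.75 and 5.60 in wild type, which is -0.18 ± 0.11 (SE) without overlap, and -0.11 without wild type 1. Chek1, the effector of ATR, was at 4.04 and 4.33 in the null and at 3.99 and 4.15 in wild type, which is 0.11 ± 0.15 (SE) with overlapping groups. All 4 Chek1 values lay below the median over genes of their array (4.66 to 4.70), where a signal above background is not shown. Without Ifrd1 null 2 the Chek1 difference was -0.03.

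Among the chromatin mediators, Trp53bp1 encodes 53BP1, which holds back the trimming of broken ends. It was at 6.16 and 5.99 in the null arrays, against 6.19 and 6.23 in wild type, with no overlap and a difference of -0.14 ± 0.12 (SE), or -0.049 without Ifrd1 null 2 and -0.22 without Ifrd1 null 1. Mdc1, the scaffold that binds the phosphorylated histone at breaks, was at 6.06 and 5.73 in the null arrays and 5.91 and 5.98 in wild type. One null array was thus above and the other below both wild-type arrays, and the difference was -0.05 (0.12 without Ifrd1 null 2).

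The MRE11-RAD50-NBS1 complex binds broken ends and starts their trimming. Mre11a, its nuclease, was at 5.98 and 6.03 in the null arrays and at 6.19 and 6.43 in wild type, a difference of -0.31 ± 0.13 (SE) or 1.24-fold, and -0.18 without wild type 2. The null arrays were close together and both below wild type. Nbn, the subunit that recruits ATM, was at 5.80 and 5.77 in the null, against 5.92 and 5.97 in wild type. Its groups were 0.12 apart at the nearest arrays, and its difference of -0.15 ± 0.10 (SE) exceeded the gap between replicates in either group. Rad50, the ATPase that bridges the ends, did not share this order, with 6.07 and 5.80 in the null arrays and 5.97 and 6.02 in wild type. Its difference was -0.06, and 0.07 without Ifrd1 null 2.

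Homologous recombination held the largest differences in both directions. Bard1, the obligate partner of BRCA1 in its ubiquitin ligase, was at 3.54 and 3.59 in the null arrays and at 3.92 and 4.12 in wild type. The null values were the lower ones throughout, 0.32 from the nearest wild-type array. The difference was -0.45 ± 0.12 (SE), 1.37-fold, with a 95% interval from -0.78 to -0.13 and a limma adjusted p of 0.721. All 4 Bard1 values were below the median over genes, where a signal above background is not shown, and the size of this difference is not exact.

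Brca1 did not follow its partner. It was at 5.12 and 5.24 in the null arrays and 5.28 and 5.14 in wild type, with overlapping groups and a difference of -0.03 (95% interval -0.35 to 0.28). Its sign turned without Ifrd1 null 1 (0.029) and without wild type 1 (0.038). Within each array, Bard1 minus Brca1 was -1.57 and -1.64 in the null and -1.36 and -1.02 in wild type, so the Bard1 row stood lower relative to the Brca1 row in both null arrays.

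Brca2, which acts on resected ends during homologous recombination, was at 4.74 and 4.77 in the null, against 5.12 and 5.00 in wild type. Both null arrays were lower and nearly equal. The difference was -0.30 ± 0.11 (SE), 1.23-fold, with an interval from -0.59 to -0.01 and a limma adjusted p of 0.721. Palb2, the linker between BRCA1 and BRCA2, held the value 3.64 in both null arrays and in wild type 1, and 3.74 in wild type 2. Its difference of -0.05 came from wild type 2 alone and was 0 without that array.

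The other recombination members were mixed. Rad51c, which acts in homologous recombination, was at 4.41 and 4.77 in the null arrays and at 4.19 and 4.41 in wild type, the largest positive difference of the 29 genes at 0.29 ± 0.17 (SE). Its groups were separated by 0.002 only, and its difference was 0.11 without Ifrd1 null 2, 0.47 without Ifrd1 null 1 and 0.18 without wild type 1. Rad54l, a translocase that helps strand invasion, was at 4.07 and 4.13 in the null arrays, inside the wild-type values of 3.98 and 4.32, and its difference of -0.05 was 0.12 without wild type 2. Blm, the helicase that dissolves joint molecules, was at 4.59 in both null arrays and at 4.47 and 4.65 in wild type, a difference of 0.03 whose sign turned with median centring (-0.020), cyclic loess (-0.0081) and without wild type 1 (-0.061). Levels of Rad54l, Blm and Palb2 lay below the median over genes in all 4 arrays, and those of Rad51c in 3.

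**Figure D2:**
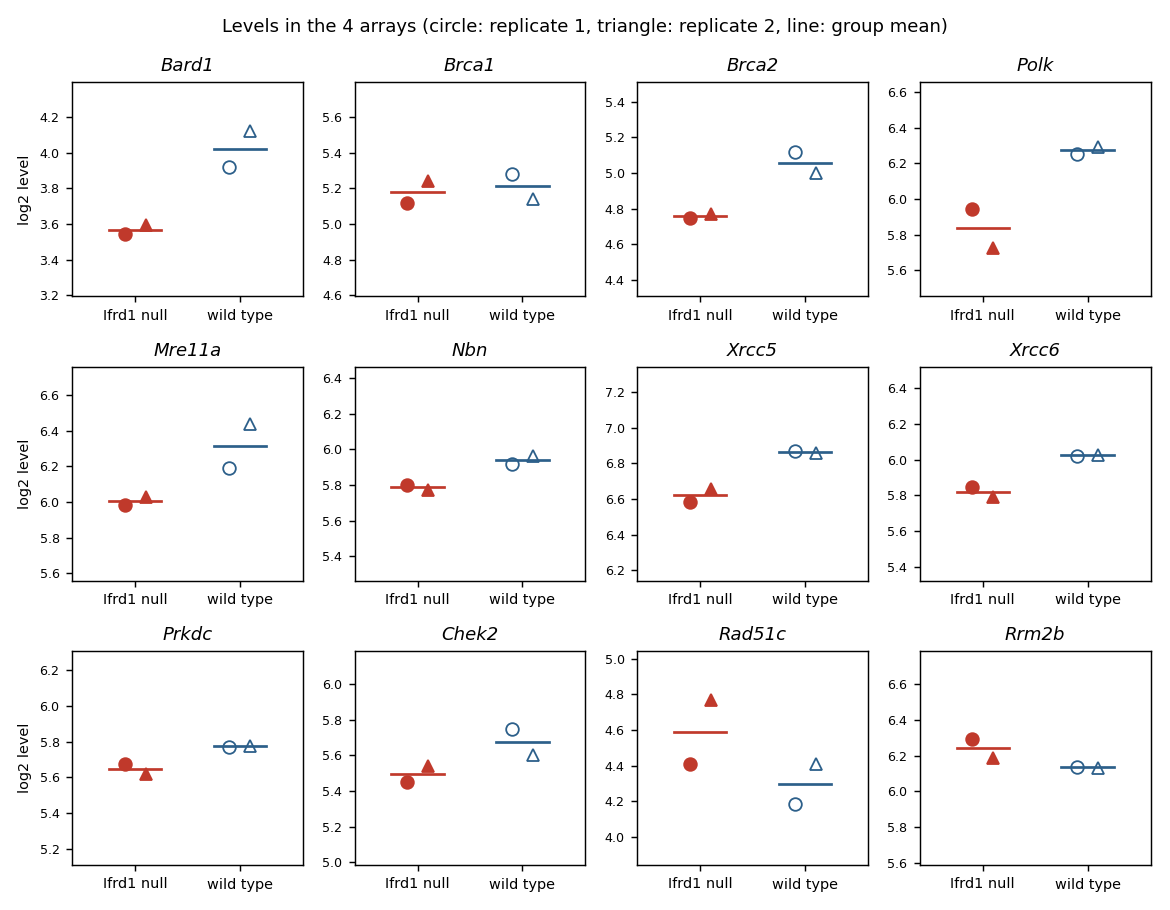
Log2 level of 12 repair genes in each array, with Ifrd1 null on the left and wild type on the right of each panel (circle, replicate 1; triangle, replicate 2; line, group mean). All panels span the same log2 range but are centred on each gene, so heights are comparable within a panel only. Bard1, Brca2, Polk, Mre11a, Nbn, Xrcc5, Xrcc6, Prkdc and Chek2 show both null arrays below both wild-type arrays, Rad51c and Rrm2b both above, and Brca1 overlaps. The 12 genes were picked for display and do not stand for all 29. Among the 29 repair genes, groups did not overlap for 14, of which 12 were lower and 2 higher. That compares with 19.7% of all genes lower and 16.1% higher without overlap.

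In the Fanconi anaemia pathway, which repairs crosslinks between DNA strands, the 2 measured members make up the ID complex that is clamped onto DNA. Fancd2 held 4.19 in both null arrays and in wild type 1, and 4.29 in wild type 2. Fanci was at 3.39 and 3.02 in the null and at 3.18 and 3.28 in wild type, so that wild type lay between the null arrays. Neither gave a difference larger than 0.05, and the Fanci sign turned without Ifrd1 null 2 (0.17) and without wild type 2 (0.03). Both lay below the median over genes in every array.

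Of the end joining members, 3 of 4 had nearly the same value in both wild-type arrays and were lower in both null arrays. All 4 lay above the median level over genes, where 29.1% of genes were lower without overlap, beside 19.7% of all genes. Of the 5 other end joining genes measured, 1 was lower without overlap and 1 higher. Xrcc5 encodes Ku80 and Xrcc6 Ku70, which form the ring that caps broken ends. Xrcc5 was at 6.58 and 6.66 in the null arrays, against 6.87 and 6.86 in wild type, a difference of -0.25 ± 0.10 (SE). Xrcc6 was at 5.85 and 5.79 in the null, against 6.02 in both wild-type arrays, which is -0.20 ± 0.10 (SE). Both Ku subunits were thus lower in each null array, 1.19-fold and 1.15-fold in the means.

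Prkdc, the DNA-dependent protein kinase that Ku recruits, was at 5.67 and 5.62 in the null and at 5.77 and 5.78 in wild type, a difference of -0.13 ± 0.10 (SE). For Xrcc5, Xrcc6 and Prkdc the null arrays lay 0.07, 0.05 and 0.06 apart and the wild-type arrays 0.009, 0.002 and 0.005. These 3 differences kept their sign under all 13 alternatives tried, with limma adjusted p of 0.724, 0.741 and 0.783 over all arrays. Lig4, the ligase of the pathway, was at 4.97 and 4.75 in the null arrays and at 4.87 and 5.12 in wild type, with overlap and a difference of -0.13 ± 0.15 (SE). Leaving out Ifrd1 null 2 gave -0.022, leaving out wild type 1 gave -0.26, and leaving out wild type 2 gave -0.0045.

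The 3 members that act on damage to a single strand or on mismatched bases, Parp1, Xrcc1 and Msh6, overlapped between genotypes. Parp1, which senses nicks and marks them with ADP-ribose chains, was at 7.59 and 7.64 in the null and 7.62 and 7.75 in wild type, and its difference of -0.07 turned positive with quantile normalization (0.0079) and cyclic loess (0.022), and was -0.0022 without wild type 2. Xrcc1, the scaffold that PARP1 activity recruits, was at 6.01 and 6.08 in the null and 6.01 and 5.99 in wild type, a difference of 0.04 that turned with median centring (-0.0056) and was 0.0095 without Ifrd1 null 2. Msh6, a subunit of the mismatch sensor, was at 5.35 and 5.08 in the null and 5.26 and 5.53 in wild type, a difference of -0.18 ± 0.16 (SE). Replicates of Msh6 lay 0.26 apart in the null and 0.27 apart in wild type, further than the genotypes. Leaving out Ifrd1 null 2 gave a difference of -0.050, and leaving out wild type 2 gave -0.046.

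The members that p53 is known to induce, Polk, Rrm2b and Xpc, had differences on both sides of 0. Ercc1, of nucleotide excision repair, is given beside Xpc. Polk, a polymerase that copies past bulky lesions, was at 5.94 and 5.73 in the null arrays and at 6.26 and 6.29 in wild type. Both null arrays were at least 0.31 below wild type, and the difference was -0.44 ± 0.12 (SE), 1.36-fold, with an interval from -0.77 to -0.11 and a limma adjusted p of 0.721. It was between -0.55 and -0.33 with each array left out in turn. Rrm2b, the ribonucleotide reductase subunit that supplies nucleotides for repair outside S phase, went the other way, with 6.29 and 6.19 in the null and 6.14 and 6.13 in wild type, or 0.11 ± 0.10 (SE), and 0.053 without Ifrd1 null 1. Xpc, which recognises distorted DNA for nucleotide excision, was at 5.99 and 5.85 in the null arrays and 6.04 and 6.03 in wild type (-0.11 ± 0.11, SE), a separation of 0.03, and its difference was -0.041 without Ifrd1 null 2 and -0.19 without Ifrd1 null 1. Ercc1, part of the nuclease that cuts beside the lesion, overlapped, at 5.85 and 6.01 in the null and 5.92 and 5.99 in wild type, and its difference of -0.03 turned positive without Ifrd1 null 1 (0.057).

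**Figure D3:**
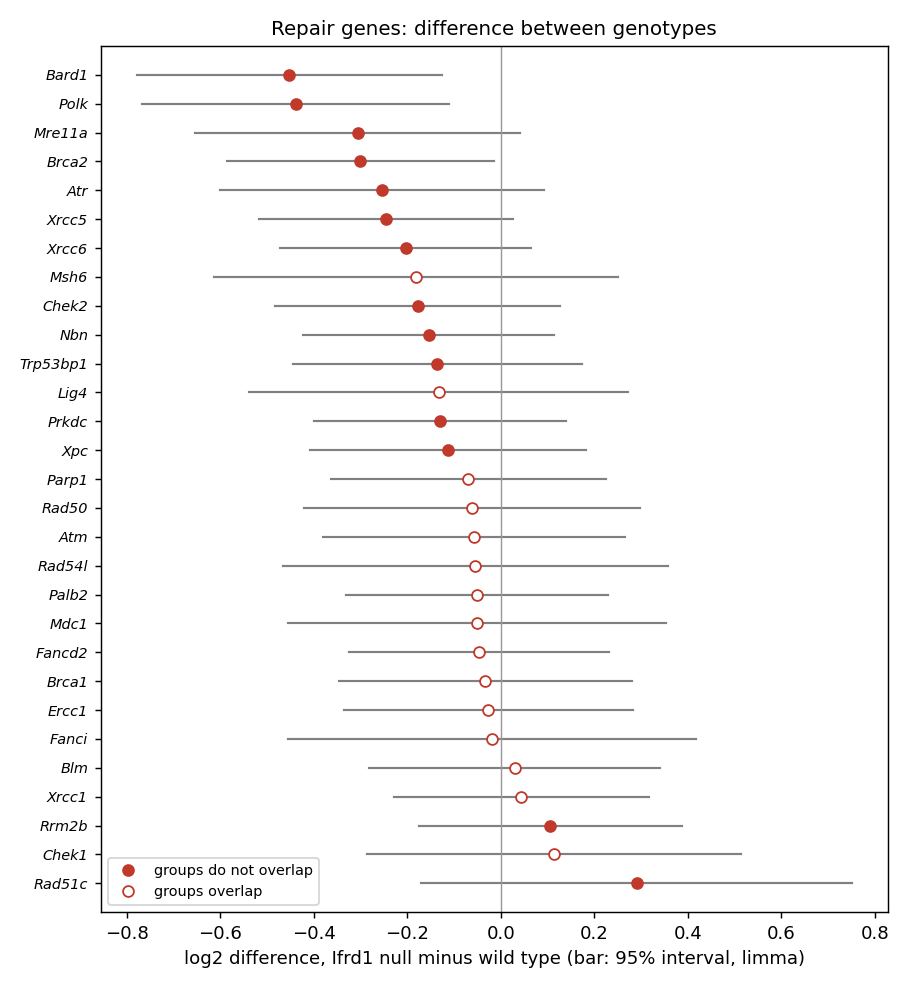
Log2 difference, Ifrd1 null minus wild type, of the 29 repair genes in order of size, with limma's 95% interval as a bar; filled points have groups that do not overlap. The intervals of Bard1, Polk and Brca2 lie wholly below 0 before adjustment, and the other 26 include 0.

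The spread between mice was of the size of most differences. Over the 29 genes the median gap between the null arrays was 0.11 and between the wild-type arrays 0.09 (absolute log2), against a median absolute genotype difference of 0.11. The genotype difference exceeded both replicate gaps for 10 members, which were Atr, Chek2, Mre11a, Nbn, Bard1, Brca2, Xrcc5, Xrcc6, Prkdc and Polk, and for 23.6% of all genes. Palb2, Fancd2 and Xrcc1 held the same value on at least 2 arrays, as did 14.1% of all genes. Of the 29 signs, 18 were kept with each array left out in turn and 24 under the other 9 alternatives.

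Repair genes outside the 29 were examined from a list of 93, of which 82 were measured. In the null 54 of them were lower (65.9%), beside 52.6% of all genes and 67.3% of genes above the median level, where 59 of the 82 lay. Their median was -0.09, and none passed limma's test over all genes (0 at adjusted p under 0.05). At unadjusted limma p under 0.05, 8 were lower (9.8%) and 1 higher, beside 3.63% and 3.27% of all genes. Groups did not overlap for 41 of them, 31 lower (37.8%) and 10 higher (12.2%). All genes gave 19.7% and 16.1%, and genes above the median level 29.1% and 8.82%. Mismatch repair genes were lower in 4 of 4 and nucleotide excision genes in 10 of 12, while base excision genes were lower in 5 of 14 and recombination genes in 6 of 14. Parp2, a relative of Parp1, was at 6.47 and 6.40 in the null and 6.75 and 7.03 in wild type (-0.45 ± 0.14, SE). Rad1, of the clamp that activates ATR, was at 5.01 and 4.90 against 5.44 and 5.24 in wild type (-0.38 ± 0.13, SE). Rad1 has a second row, and the mean of both rows differed by -0.18.

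Further genes of this set stood near these values. Rad52 was at -0.35 ± 0.12, Ddb1, the partner of DDB2 in damage recognition, at -0.32 ± 0.11, Mgmt, which removes alkyl groups from guanine, at -0.33 ± 0.12 and Rev1, a translesion polymerase, at -0.31 ± 0.11 (log2 differences, SE), each with groups that did not overlap. Tipin, a fork protection factor, stood at 0.34, the highest of the 82. Other named genes of the remaining lists were Poll (0.20 ± 0.13) and Polq (-0.22 ± 0.22) of end joining, Fancf (-0.33 ± 0.20), and Pms1 (-0.35 ± 0.24) and Mlh3 (-0.20 ± 0.10) of mismatch repair, Mlh3 for its p. These values, Mlh3 apart, moved with single arrays: Pms1 was at -0.032 without Ifrd1 null 1 and -0.67 without Ifrd1 null 2, and Fancf at -0.11 and -0.55. Fancf was also at -0.19 without wild type 2, Polq at -0.019 without Ifrd1 null 2 and -0.017 without wild type 1, and Poll at 0.11 and 0.13 without those arrays. Mlh3 stayed between -0.21 and -0.19.

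**Figure D4:**
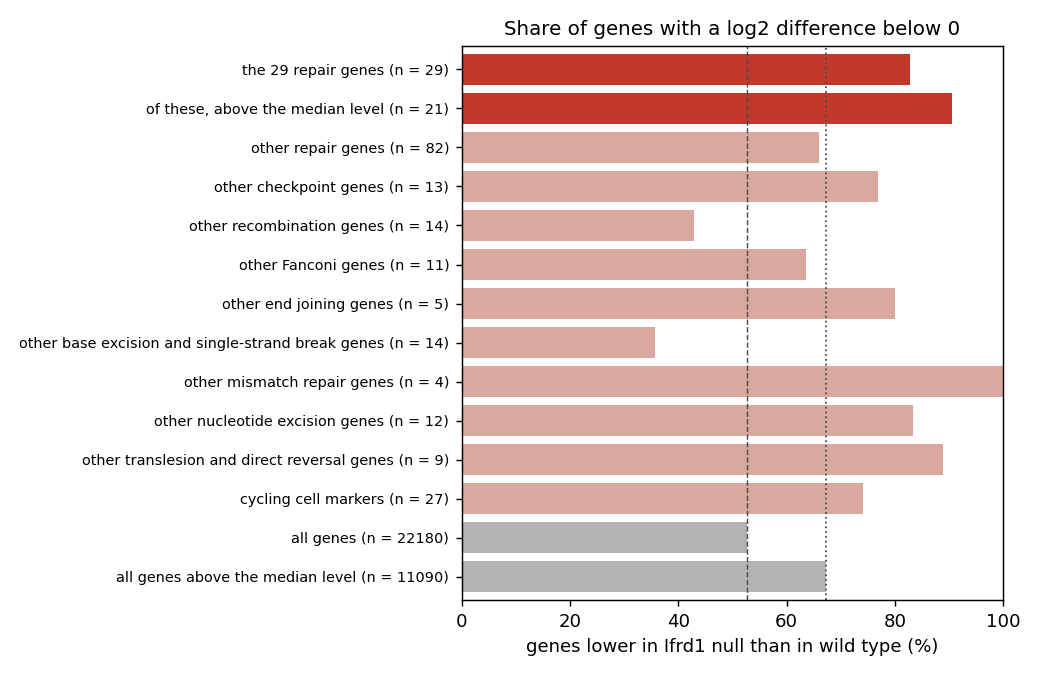
Share of genes with a lower mean in Ifrd1 null than in wild type, for the 29 repair genes, those of them above the median level, 82 other repair genes as a whole and by pathway, cycling cell markers and all genes. The dashed line marks all genes (52.6%) and the dotted line genes above the median level (67.3%); the 29 genes stand at 82.8% and the other repair genes at 65.9%.

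Markers of cycling cells were set beside the repair genes, since many of these are transcribed in S phase. Of 27 measured, 20 were lower in the null (74.1%), beside 52.6% of all genes. Of genes above the median level, where 23 of the 27 lay, 67.3% were lower. The mean level of the 27 markers was 5.51 and 5.45 in the null arrays against 5.62 and 5.63 in wild type. The mean level of the 29 repair genes was 5.34 and 5.31 in the null, against 5.40 and 5.47 in wild type. The helicase genes Mcm5 and Mcm7 were at -0.56 ± 0.13 and -0.47 ± 0.11 (log2 difference, SE), while Mki67 was at -0.02 ± 0.13. Of T and NK cell markers 12 of 12 were higher (4.37 and 4.16 against 3.88 and 3.97 in wild type), beside 10460 of all 22180 genes. Of the 12 markers, 3 lay above the median level over genes, and the lowest, Gzmb, averaged 2.56. Their groups did not overlap for 3 (25%), beside 16.1% of all genes. The median gap between their wild-type arrays was 0.43, against a median difference of 0.34. Endothelial markers were lower in 7 of 8 (6.35 and 6.29 against 6.55 and 6.53 in wild type). Islet markers were lower in 7 of 9 (7.33 and 7.35 against 7.62 and 7.54 in wild type) and duct and metaplasia markers in 8 of 9 (8.11 and 7.96 against 8.23 and 8.26 in wild type). Macrophage markers were lower in 9 of 10 and stellate and fibroblast markers in 9 of 11, with mean levels that overlapped between groups (8.75 and 8.19 against 8.58 and 8.70 in wild type, and 9.23 and 8.69 against 9.22 and 9.05 in wild type). All measured endothelial, islet, duct and metaplasia, macrophage, and stellate and fibroblast markers lay above the median level over genes. Their shares lower were 87.5%, 77.8%, 88.9%, 90% and 81.8%, in that order. Genes above the median level gave 67.3%, and all genes 52.6%. The part of the cycling and cell type markers in the repair gene values was not tested.

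Promoter sequence was examined because many repair genes are known E2F targets. RefSeq promoter windows (GRCm38.p6, 250 bases before to 50 after a gene's start) were at hand for 23 of the 29 genes, as 27 windows. An E2F-type motif, searched on both strands as TTTGGCGC, TTTCCCGC, TTTCGCGC or TTTGCCGC, lay in 8 of these 27 windows (29.6%), beside 2.3% of all 32851 windows and 3.7% of those of genes above the median level. The 7 genes were Bard1, Brca2, Chek2, Mdc1, Msh6, Rad51c and Xrcc6. Of these 6 were lower in the null (median difference of the 7, -0.18) and 13 of the 16 without it (-0.06). Only the searched letters inside a window were counted, so other spellings and sites cut by its edge were not. The Chek1 window, counted as without the motif, ends in GCGGGAA, the start of the searched GCGGGAAA (TTTCCCGC on the other strand). A CCAAT box (CCAAT, both strands) lay in 48.1% of the members' windows and 37.4% of all, and a cell cycle homology region (TTTGAA or TTCGAA, both strands) in 7.4% and 19.2%. No E2F-type match overlapped a match of the other 2 motifs.

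Of the 7 genes with an E2F-type motif 4 were lower without overlap, and of the 16 without it 5, beside 19.7% of all genes. Windows are shown for 3 of those 4 motif genes, Chek2 being left out. The window of Rad51c, the member with the highest difference, is also shown, with the E2F-type letters in capitals. The windows were picked by the differences of their genes, and a link between motif and difference was not tested. Bard1 is on the minus strand at chr1:71102923-71103222, with the motif beginning at position -209 from the start. Brca2 is on the plus strand at chr5:150522371-150522670, with the motif at -168. Xrcc6 is on the plus strand at chr15:82016119-82016418, with the motif at -46, and Rad51c, which has a second start, is on the minus strand at chr11:87404905-87405204, with the motif at -5.
Bard1: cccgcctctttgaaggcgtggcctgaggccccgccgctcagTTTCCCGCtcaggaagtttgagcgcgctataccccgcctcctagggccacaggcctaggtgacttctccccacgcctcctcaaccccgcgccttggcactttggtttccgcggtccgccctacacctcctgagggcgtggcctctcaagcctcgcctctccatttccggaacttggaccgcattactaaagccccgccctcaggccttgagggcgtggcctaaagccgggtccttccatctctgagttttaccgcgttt
Brca2: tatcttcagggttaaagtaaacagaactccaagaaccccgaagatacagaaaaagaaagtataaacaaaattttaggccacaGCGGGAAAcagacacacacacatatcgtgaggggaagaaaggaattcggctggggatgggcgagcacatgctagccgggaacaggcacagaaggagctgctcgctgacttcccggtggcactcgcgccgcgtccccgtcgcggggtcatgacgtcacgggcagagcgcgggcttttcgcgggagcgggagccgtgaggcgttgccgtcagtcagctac
Xrcc6: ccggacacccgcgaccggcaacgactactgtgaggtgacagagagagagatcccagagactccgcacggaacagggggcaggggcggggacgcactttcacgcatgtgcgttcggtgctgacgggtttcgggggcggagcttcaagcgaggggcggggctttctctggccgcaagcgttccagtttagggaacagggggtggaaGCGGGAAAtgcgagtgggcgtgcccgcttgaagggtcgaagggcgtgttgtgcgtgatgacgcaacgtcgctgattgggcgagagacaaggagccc
Rad51c: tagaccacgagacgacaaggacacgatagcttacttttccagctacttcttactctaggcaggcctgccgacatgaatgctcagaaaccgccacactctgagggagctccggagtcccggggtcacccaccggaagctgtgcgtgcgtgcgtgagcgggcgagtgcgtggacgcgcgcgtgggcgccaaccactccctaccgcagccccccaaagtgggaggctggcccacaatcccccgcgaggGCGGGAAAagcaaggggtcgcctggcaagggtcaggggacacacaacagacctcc
The same 8 letters, read on one strand or the other, occur in all 4 windows shown, among genes that were lower and the one that was higher in the null. The window at the other Rad51c start holds another E2F-type motif, TTTCGCGC, at position 11. A match is a description of the sequence and not a binding site.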

How the data were processed

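RNA from 4 whole pancreata was measured on Affymetrix arrays. The authors deposited 1 normalized value per array and row, treated here as log2 because all values lay between 0.218 and 13.9; background correction, summary and normalization are not given in the sources used here. Of 41345 rows, 23521 had 1 gene symbol in the platform annotation, 1814 several and 16010 none here. The row with the highest mean stood for a gene (22180 genes; 1082 had more than 1 row). Dim rows were kept, without detection calls.

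Groups were compared with limma 3.58.1 (lmFit, eBayes) in R 4.3.3, Ifrd1 null minus wild type, two-sided, with Benjamini-Hochberg adjustment over all genes and a threshold of 0.05. Intervals are limma's 95% intervals. An exact permutation test of 2 against 2 arrays cannot go below p = 0.333, so none is given. The fit was tested on simulated data. The members and lists were chosen with earlier results of these data known. Named outside the members were, per list, the genes with the smallest p and the largest difference, with Mki67; Tipin was chosen after its values were seen. The number of arrays limits the precision. Per the labels the samples are biological replicates, with no litter or day stated. Arrays with the same number did not deviate together (r = -0.04 across genes). Alternatives are given in the closing section.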

Additional observations from a re-analysis of the deposited data

How the results depend on the processing

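No repair gene passed the threshold under any of 13 alternatives, where the lowest limma adjusted p of a member was 0.473. Genes past it in the whole table numbered 5 with median centring, with robust, trended eBayes and with genes left out that hold the same value on 2 or more arrays (an alternative added after seeing the data), 4 with quantile normalization, cyclic loess and the replicate number as a block (pairing), and 0 without X and Y genes, among genes above the median level and with any array left out. Genes at unadjusted p under 0.05 numbered 1532, and 884 among those above the median level, where fewer genes were tested. The members lower in the null numbered 26 of 29 with median centring (62.3% of all genes), 22 of 29 with quantile normalization (50.7%) and cyclic loess (51.1%), and 19 to 24 with an array left out. Their median was -0.13 above the median level and -0.17 to -0.046 with an array left out, lowest without Ifrd1 null 1. With the block it was -0.07, with 24 lower, and no member passed the adjusted threshold with it, while members at unadjusted p under 0.05 numbered 2, without Brca2. Groups did not overlap for 18 to 23 members (13 to 19 lower) with an array left out, where 3 arrays overlap less easily (31.4% to 38.3% of all genes lower). Signs turned for Parp1 (0.0079), Ercc1 (0.017) and Mki67 (0.049) with quantile normalization, for Blm (-0.020) and Xrcc1 (-0.0056) with median centring, and for Atm (0.0053), Blm (-0.0081), Parp1 (0.022), Ercc1 (0.022) and Mki67 (0.057) with cyclic loess. With an array left out, signs turned within these ranges: Atm -0.16 to 0.046, Brca1 -0.10 to 0.038, Ercc1 -0.11 to 0.057, Chek1 -0.031 to 0.26, Mdc1 -0.22 to 0.12, Rad50 -0.19 to 0.071, Fanci -0.20 to 0.17, Blm -0.061 to 0.12, Rad54l -0.23 to 0.12 and Mki67 -0.14 to 0.097. Palb2 and Fancd2 were at 0 without wild type 2. The causes were not tested. Levels below the median over genes are not shown to be above background, which limits the 8 members there.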
